A study of Homo sapiens with 16 samples.

Results

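Cell-cell adhesion was among the enriched Gene Ontology biological processes of the gene list deposited for brain metastases of the MDA231 breast cancer line. The genes described here were chosen by the authors' enrichment result: they are those printed for the term whose name is exactly cell-cell adhesion in the authors' deposited table, matched to symbols. The term printed 86 Ensembl identifiers. KRT18, a keratin, and ENO1, a glycolytic enzyme, were left out by rule, which left 84 members of the 2646 genes named in any term of that table. The same rule leaves out CDH1, KRT8 and CTNNB1, but the term did not name them. CDH1 stood in 3 other terms, KRT8 in 2 and CTNNB1 in 13, while KRT18 and ENO1 each stood in 4 terms, this one included.

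The series holds 16 libraries in 4 groups of 4, namely MDA231 IP, MDA231 input, HCC1954 IP and HCC1954 input. Both lines are human breast cancer lines, MDA231 a triple-negative line and HCC1954 an ERBB2-positive one, and brain-metastatic derivatives of both were grown for 30 days in the brains of xenografted mice. In every group, 250 mg/kg 5-fluorocytosine was injected and brains were harvested 12 hours later. In Flura-seq, cells that can convert this compound incorporate it into newly made RNA, which an antibody then recovers (IP) from the mRNA (input). Mouse strain and age, the cassette used for conversion and whether a library is 1 brain are not stated. Only the 2 tables of enriched terms, 1 per line, enter the values below. No library has a value here, so neither sequencing depth nor replicate spread is known and no replicate error can be given. How the listed genes were picked, and in which direction they differed in IP RNA, is not stated, so a gene is only ever called listed or named.

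Cells adhere to one another through transmembrane receptors, such as cadherins, nectins and the proteins of tight junctions, whose outer parts bind a partner on the next cell. Inside the cell, plaque proteins such as catenins, zonula occludens scaffolds and plakins tie these receptors to actin or intermediate filaments, and endocytosis and recycling set how many receptors stay at the surface. In epithelial tumours such as breast carcinoma, contacts of this kind hold cells in cohesive groups. The Gene Ontology term takes in many proteins besides the receptors themselves.

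The term chose the members, so its own values only describe that choice. It held 86 of its 271 background genes, or 31.7% (95% exact binomial interval 26.2 to 37.6, which covers the draw of genes only), where 21.6% of all 16792 background genes were listed. The authors' deposited table gave a fold enrichment of 1.47, an unadjusted p of 0.000102, a Benjamini adjusted p of 0.0462 and a Bonferroni p of 0.484. By unadjusted p it was number 14 of 314 listed terms, of which 15 (4.78%) had an adjusted p under 0.05. That percent is a share of the printed terms and not of all terms tested, which were more. The other 185 background genes of the term are not named in the table and are not analysed here.

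Most members were not adhesion molecules. Assigned by general knowledge of each protein, 4 of the 84 members were junction or adhesion receptors and 4 were junction plaque or adaptor proteins, together 9.52% of the members. Membrane traffic was the largest of the 9 classes with 22 members (26.2%), followed by the cytoskeleton with 17 (20.2%), signalling with 12 (14.3%), translation or RNA with 10 (11.9%), metabolism with 4 and chaperone or protein turnover with 2. A further 9 were nuclear proteins or fitted no class. Cytoskeletal, traffic, translation or RNA, and metabolic proteins thus numbered 53 (63.1%). An established second role was noted for 14 members, among them SLC3A2, an amino acid transporter subunit that also binds integrins.

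**Figure D1:**
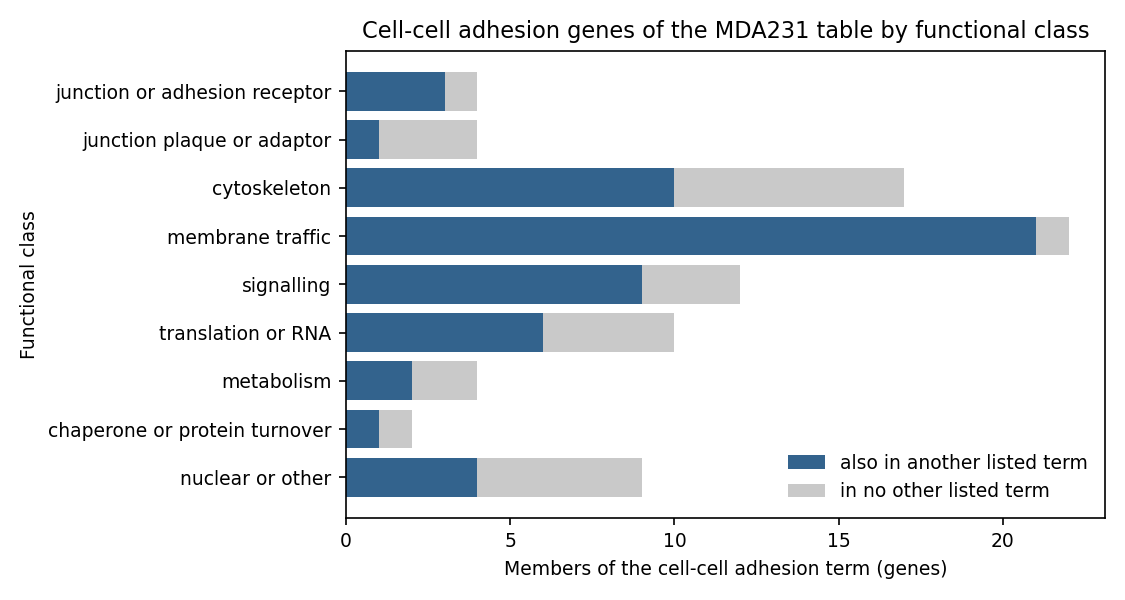
Number of cell-cell adhesion members (x axis, genes) in each functional class (y axis), split into members also named in another listed MDA231 term (blue) and members named in no other (grey). Membrane traffic has 22 members, of which 21 are in another term, and the 2 junction classes at the top have 4 members each.

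The receptors differed in how often the rest of the table named them. F11R, the immunoglobulin-type junctional adhesion molecule A of tight junctions (ENSG00000158769; GRCh38 chromosome 1, 160995211 to 161021348, minus strand), was in 3 other terms: bicellular tight junction assembly, viral entry into host cell and establishment of protein localization to plasma membrane. CEACAM1, a homophilic adhesion molecule of the carcinoembryonic antigen family (chromosome 19, 42507304 to 42561234, minus strand), was in 2, blood vessel development and cellular response to insulin stimulus. FLRT3, a leucine-rich repeat membrane protein that binds latrophilins on neighbouring cells (chromosome 20, 14322988 to 14337616, minus strand), was in neuron projection development alone. None of the 4 receptors stood in another term with an adjusted p under 0.05.

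Of the 4 plaque and adaptor proteins, only MPP7 was in other terms. MPP7, a membrane-associated guanylate kinase scaffold of cell polarity (chromosome 10, 28050993 to 28334486, minus strand), was in bicellular tight junction assembly and positive regulation of protein complex assembly. The zonula occludens scaffold TJP1 (chromosome 15, 29699367 to 29968865, minus strand), which links tight junction proteins to actin, was named for cell-cell adhesion alone. The same was true of PPL, or periplakin, a plakin of desmosomes (chromosome 16, 4882507 to 4960741, minus strand). TJP1 was not named under tight junction assembly, although F11R and MPP7 were.

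The promoters of the junction members are shown because these are the members that the name of the term describes. RefSeq windows on GRCh38.p14, from 250 bases before to 50 bases after the first start listed for a gene, were found for 70 of the 84 members and for 4 of these 8. Capitals mark CAGGTG, an E-box that the ZEB and SNAI repressors of epithelial genes are known to bind, on either strand. The windows are chr19:42528432-42528731 for CEACAM1, chr20:14337563-14337862 for FLRT3, chr10:28303015-28303314 for MPP7 and chr15:29969000-29969299 for TJP1, all on the minus strand and written 5′ to 3′.
CEACAM1: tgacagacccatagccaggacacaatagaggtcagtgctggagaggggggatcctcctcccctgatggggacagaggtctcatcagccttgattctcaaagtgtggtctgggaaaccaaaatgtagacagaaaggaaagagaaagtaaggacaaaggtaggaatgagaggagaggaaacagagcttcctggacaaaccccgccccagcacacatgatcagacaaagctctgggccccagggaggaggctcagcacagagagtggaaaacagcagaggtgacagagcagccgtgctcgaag
FLRT3: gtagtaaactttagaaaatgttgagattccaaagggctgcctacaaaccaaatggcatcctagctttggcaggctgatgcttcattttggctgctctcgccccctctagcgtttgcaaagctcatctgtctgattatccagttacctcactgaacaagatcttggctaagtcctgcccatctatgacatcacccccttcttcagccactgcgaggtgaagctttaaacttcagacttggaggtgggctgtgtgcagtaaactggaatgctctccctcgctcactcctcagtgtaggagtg
MPP7: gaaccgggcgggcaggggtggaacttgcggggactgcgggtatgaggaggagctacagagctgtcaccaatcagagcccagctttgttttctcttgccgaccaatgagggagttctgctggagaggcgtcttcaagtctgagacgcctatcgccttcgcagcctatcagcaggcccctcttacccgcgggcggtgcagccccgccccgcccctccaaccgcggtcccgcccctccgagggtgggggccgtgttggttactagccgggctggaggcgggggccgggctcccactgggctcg
TJP1: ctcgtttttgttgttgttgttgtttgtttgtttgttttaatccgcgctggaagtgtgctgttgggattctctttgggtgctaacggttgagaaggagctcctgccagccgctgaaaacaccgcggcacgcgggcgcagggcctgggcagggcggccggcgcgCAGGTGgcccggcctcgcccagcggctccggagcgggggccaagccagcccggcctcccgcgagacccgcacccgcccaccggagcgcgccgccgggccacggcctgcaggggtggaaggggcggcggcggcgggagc
The 2 receptor windows were poor in CpG, with 3 CpG and 53.7% G or C for CEACAM1 and 4 CpG and 48.7% for FLRT3. The 2 scaffold windows were richer, with 23 CpG and 67.3% for MPP7 and 34 CpG and 70.0% for TJP1. The windows of CEACAM1 and MPP7 lay inside the gene spans given above, away from their 5′ ends. CpG was counted at the first listed start alone, so this contrast holds for the starts used and was not tested. TJP1 held the single marked E-box, beginning 88 bases before the start.

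Over the 70 member windows the median was 32 CpG and 68.8% G or C, against 27 CpG and 65.3% in the 2195 windows of all named genes and 14 CpG and 58.3% in all 27305 windows of the table. CAGGTG stood on either strand in 23 member windows (32.9%), against 18.6% of windows of all named genes and 20.6% of all windows. With every listed start of a gene searched, the shares were 44.3% for members, 24.5% for all named genes and 24.1% for all genes. GGGCGG, the SP1 box, was in 82.9% of member windows, 71.7% of those of all named genes and 44.6% of all windows. CACGTG, the MYC E-box, was in 4 member windows (5.71%), against 10.8% of windows of all named genes and 7.43% of all windows. TATAAA, the TATA box, was in 2 member windows (2.86%), against 5.15% of windows of all named genes and 12.0% of all windows. All 4 motifs were searched on both strands, none contains another though matches may share end letters, and a match is a run of letters and not a shown binding site. These differences were not tested. Among the members with CAGGTG were TJP1, LIMA1, VASP, DBN1, LAD1 and YKT6. The translation or RNA members EEF2, DDX6, EIF2A and GCN1 had it too, as did MRE11 and UBFD1, so it was not limited to junction or actin genes.

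The 17 cytoskeletal members were actin regulators for the most part, and 7 of them were in no other term. VASP, which promotes actin filament elongation, was also in neural tube closure. LIMA1, or EPLIN, which ties actin bundles to catenins, was named for cell-cell adhesion alone, as were the actin monomer binding twinfilins TWF1 and TWF2, the actin-bundling protein DBN1, CORO1B and the membrane linker EPB41L1. CDC42EP1, a CDC42 effector, and EPS8L1 and EPS8L2, relatives of an actin-capping protein, were each in 1 other term. The most often named of the class were microtubule and septin proteins. CKAP5, a microtubule polymerase, was in 5 other terms, NUDC, a dynein regulator, in 4 and SEPTIN9, a septin filament subunit, in 3, and all of these stood in cell division. CKAP5 and NUDC shared 3 other terms, namely cell division, mitotic nuclear division and sister chromatid cohesion.

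Membrane traffic proteins were named most often elsewhere. Of the 22, 21 (95.5%) were in another term, with a median of 3.5 other terms, against 36 of 62 members of the remaining classes (58.1%) with a median of 1. They supplied 76 of the 167 namings of members in other terms (45.5%). STX5, a Golgi SNARE that fuses vesicles, led with 10 other terms, TBC1D10A, a Rab GTPase-activating protein, had 7, and USO1, a tether of Golgi vesicles, the SNARE YKT6 and the sorting nexin SNX2 had 6 each. SNX1, which retrieves cargo from endosomes together with SNX2, and EHD1, which acts in endocytic recycling, had 5. EPS15 of clathrin-mediated endocytosis, FNBP1L, IST1 and the exocytic GTPase RAB10 had 4. PACSIN2, a membrane-bending protein of endocytosis, was the class member in no other term. Classes were assigned with the gene names and terms in view, so this contrast is a description and was not tested.

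The pairs of members that shared most other terms were largely traffic members. STX5 and USO1 stood together in 5 other terms, SNX1 and SNX2 in 4 and SNX1 and STX5 in 4. Only 6 pairs among the 84 members shared 3 or more other terms, and in 5 of them both genes were traffic members. The remaining pair was CKAP5 with NUDC.

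**Figure D2:**
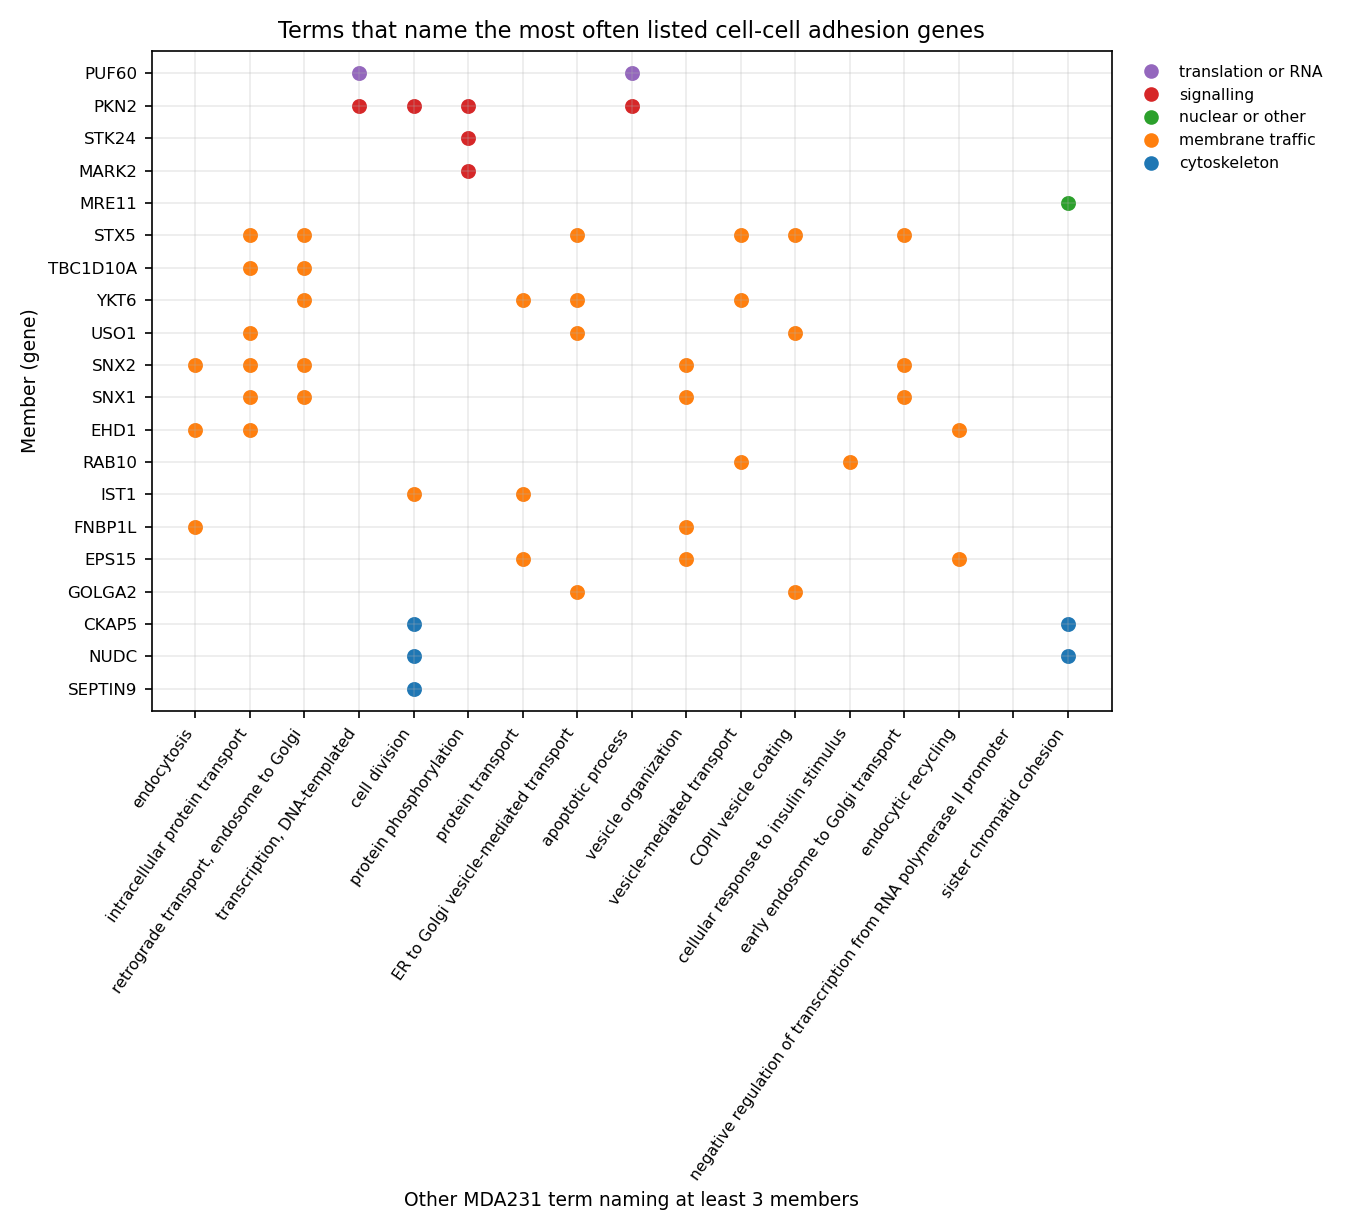
Dots mark which other MDA231 terms naming at least 3 members (x axis) name each member (y axis), for members in at least 3 other terms and at least 1 of those shown, coloured by functional class; 1 member and 1 term that qualify are not shown. The traffic members fill the transport and endocytosis columns, and CKAP5, NUDC and SEPTIN9 share the cell division column.

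Signalling members reached other parts of the table. PKN2, a serine/threonine protein kinase, was in 6 other terms, among them cell division, cell cycle and protein phosphorylation. CRKL, an adaptor, MARK2, a kinase of cell polarity, and STK24 were each in 3, and the receptor NOTCH3 and the kinase STK38 in 2. The signalling members in no other term were PPME1, a methylesterase of a protein phosphatase, S100P, a calcium-binding protein, and VASN, a membrane protein that binds TGF-beta.

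Translation and RNA proteins had fewer other terms. PUF60, a splicing factor, was in 3 and SND1, a nuclease-domain RNA-binding protein, in 2. DDX6, an RNA helicase of mRNA decay, EEF2, the elongation factor that moves the ribosome, EIF2A, an initiation factor, and GCN1, an activator of the amino acid starvation response, were each in 1. ATXN2L, BZW2, EIF2S3 and HDLBP, an RNA-binding KH-domain protein, were in none. Of the metabolic members, FASN, the fatty acid synthase, was in 3 other terms and ATIC, an enzyme of purine synthesis, in 2, while CEMIP2, a hyaluronidase of the cell surface, and PDXDC1 were in none. The ubiquitin ligase CBL, which acts on activated receptors, was in 3 others and UBFD1 in none.

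The member found in the most terms was not a cell surface protein. MRE11, the nuclease of double-strand break repair (chromosome 11, 94415578 to 94493908, minus strand), was in 12 other terms, among them cellular response to DNA damage stimulus, DNA repair and DNA replication. In its class, ABCF3, MRTFB, a coactivator of serum response factor, and TRIM29 were each in 1 other term. LAD1, COBLL1, MB21D2, SLC3A2 and TNKS1BP1 were in none.

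The number of terms per member was set beside that of all named genes. Of the 84 members, 57 (67.9%) were in at least 1 other term and 27 (32.1%) in none. Those in exactly 1 other term, and so in 2 terms, were 23 (27.4%), where 23.8% of all named genes were in exactly 2. Term membership chose the members, so these shares are descriptions and were not tested. The other terms that named a member numbered 91 of 313, and 55 of them named a single member. The median number of terms was 2 for members, the adhesion term included, and 2 for all 2646 named genes, of which 39.6% were in a single term. In all, 24 members (28.6%) were in 1 or more of the 14 other terms with an adjusted p under 0.05, beside 777 of all 2646 named genes (29.4%), so the members lay near the share of the table as a whole. For the genes of the other terms past that threshold, the share also in another such term ran between 4.55% for fatty acid beta-oxidation and 91.4% for mitotic nuclear division, with 28.4% for protein phosphorylation. The 24 adhesion members in another such term were 13 of the 22 traffic members (59.1%) and 11 of the 62 others (17.7%). Some of these terms are transport terms and classes were assigned with the terms in view, so this contrast is a description only.

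No other term covered much of the membership. Endocytosis, intracellular protein transport, transcription (DNA-templated) and retrograde transport from endosome to Golgi each named 6 members, or 7.14%. Those 6 made up 15.0% of the 40 endocytosis genes, 6.90% of the 87 genes of intracellular protein transport, 1.34% of the 448 transcription genes and 26.1% of the 23 genes of retrograde transport. Of all 2646 named genes, these terms thus named 40, 87, 448 and 23. Transcription had a larger share of all named genes than of the members. Endocytosis, intracellular protein transport and retrograde transport had a smaller one. These differences were not tested. Cell division, protein phosphorylation and protein transport named 5 each (5.95% of the members), which made up 4.24%, 3.73% and 3.68% of those terms in that order. Of all 2646 named genes they named 118, 134 and 136. ER to Golgi vesicle-mediated transport, apoptotic process, vesicle organization and vesicle-mediated transport named 4 each, which were 6.56%, 2.84%, 33.3% and 8.33% of their 61, 141, 12 and 48 genes. Apoptotic process, with 4.76% of the members, had a larger share of all named genes, as transcription did, and this too was not tested. COPII vesicle coating named 3, GOLGA2, STX5 and USO1, of its 21 genes. Early endosome to Golgi transport was small, and SNX1, SNX2 and STX5 were 3 of its 6 genes.

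**Figure D3:**
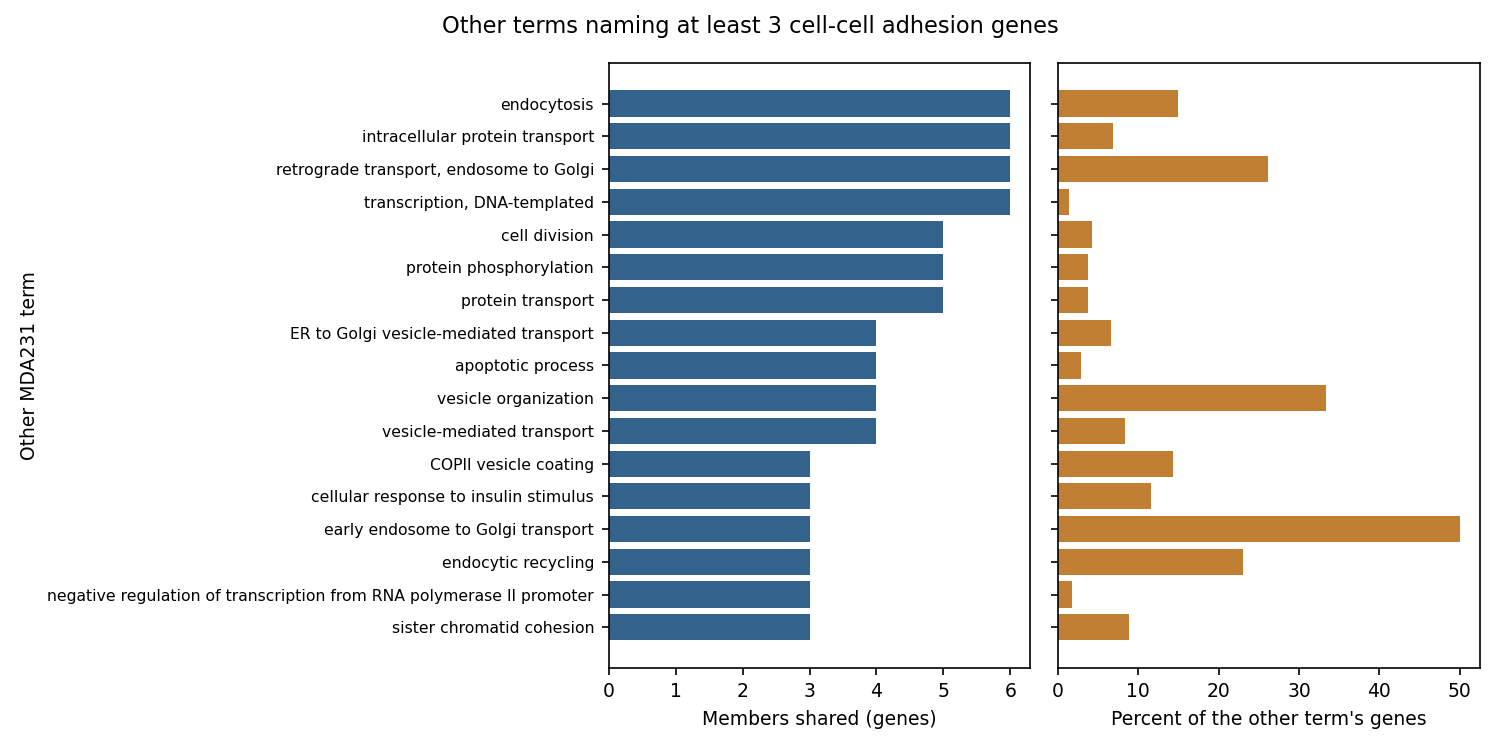
Number of cell-cell adhesion members shared with each other MDA231 term that names at least 3 (left, x axis in genes; 1 term is not shown), and the same members as a percent of the other term's genes (right). Shared numbers reach 6, and the share of the other term is 26.1% for retrograde transport and 33.3% for vesicle organization.

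Among the 15 terms with an adjusted p under 0.05, cell-cell adhesion had the highest share of genes named nowhere else. Of all 2646 named genes, 39.6% were in a single term. A gene of many terms counts once in that percent but once in each of its terms here, so the shares are not alike. Of its 86 genes, 27 (31.4%) were in no other listed term, followed by protein transport with 31 of 136 (22.8%) and fatty acid beta-oxidation with 3 of 22 (13.6%). The other 12 ran between 0% for mitotic nuclear division and 11.9% for protein phosphorylation. Among all 27 listed terms of at least 50 genes, 5 terms were higher, led by metabolic process with 34 of 58 (58.6%), and cell-cell adhesion was sixth. Genes are shared between terms, so these shares are descriptions and were not tested.

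**Figure D4:**
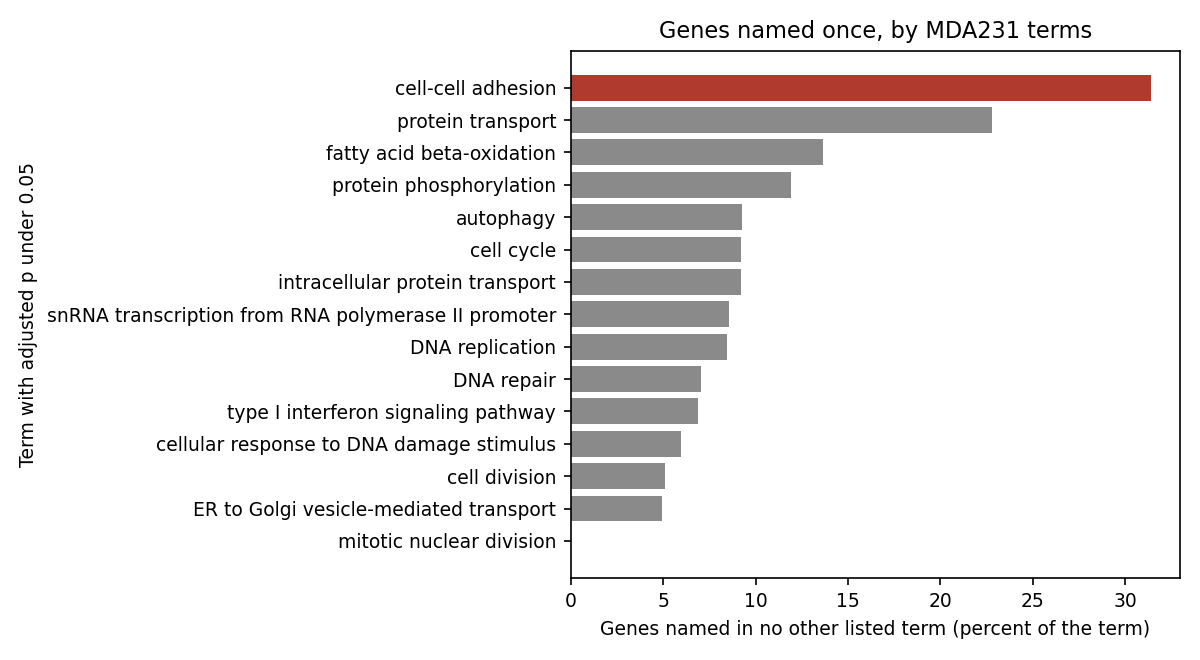
Percent of each term's genes that no other listed MDA231 term names (x axis), for the 15 terms with a deposited adjusted p under 0.05 (y axis), with cell-cell adhesion in red. Cell-cell adhesion stands at 31.4%, above protein transport at 22.8%.

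Terms that name junctions shared 2 genes with the members. The authors' deposited table listed 13 of 32 background genes for bicellular tight junction assembly, a fold of 1.88 (unadjusted p = 0.0294, adjusted p = 0.790). For cell-cell junction organization the authors' deposited table listed 9 of 18, a fold of 2.32 (unadjusted p = 0.0253, adjusted p = 0.774). Together they named 17 genes, and 5 were in both, namely CLDN1, MARVELD2, MARVELD3, OCLN and PRKCI. F11R and MPP7 were also members here, which is 2.38% of the members and 15.4% of the genes of tight junction assembly. None was shared with cell-cell junction organization. Of all 2646 named genes, tight junction assembly named 13, a smaller share than of the members, and cell-cell junction organization 9. These differences were not tested. The claudins CLDN1 and CLDN3 and occludin, the sealing proteins of tight junctions, were thus listed for MDA231 but not under cell-cell adhesion. So was GRHL2, a transcription factor of epithelial cells.

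Known adhesion and junction genes were then looked up by name in 8 lists of 104 genes, drawn up with some of the named genes known. In any MDA231 term 21 were named (20.2%), beside 15.8% of all background genes, and 7 of those 21 were members. When naming in at least 2 terms was required, the 21 became 11. Tight junction genes were named most, 7 of 16, with F11R and TJP1 among the members and CLDN1, CLDN3, OCLN and MARVELD2 outside. Desmosome genes numbered 3 of 13, PPL as a member with the cadherin DSC2 and the plaque protein PKP2 outside. Of classical cadherins and catenins 2 of 13 were named, CTNND1 and JUP, both outside the term. That list leaves out the cadherin CDH1 and the catenin CTNNB1, which the rule drops. Both were named in the MDA231 table, in 3 and 13 terms, so the count for this list and the total are low by that choice. Nectins and immunoglobulin adhesion molecules gave 4 of 16, namely NECTIN1, NECTIN4, ICAM1 and PECAM1, and none was a member. Junctional actin and membrane linkers gave 3 of 18, VASP, LIMA1 and PDLIM1, each a member. Integrins gave 1 of 11, ITGAV, and protocadherins and atypical cadherins 0 of 11. Genes that were submitted but belong to no enriched term are not printed, so absence of a name does not show absence from the list.

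Several of these genes were printed under terms whose names do not refer to adhesion. NECTIN1, NECTIN4, ICAM1, ITGAV, CLDN1 and F11R were all named under viral entry into host cell. CTNND1 was named under transcription (DNA-templated) alone and DSC2 under cellular response to starvation. JUP and PKP2 were named with F11R under establishment of protein localization to plasma membrane.

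No member was named in any of the 37 terms of the HCC1954 table, whose list held 66 genes with a biological process. The same held for all 2646 genes named for MDA231. The HCC1954 terms named 30 genes, and 2676 genes were named for either line, so no gene was named for both. The lack of shared genes was thus not particular to the members. Of the 104 adhesion and junction genes, the HCC1954 terms named GJA3, a gap junction connexin. The term cell-cell adhesion was not among the HCC1954 terms. Since that list was so much smaller, the 2 tables were not compared by a test here.

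Marker genes of the cells that a brain sample could hold were looked up too, by name and without a level. All 5 epithelial markers (GRHL2, CLDN3, OCLN, KRT7 and MUC1) were named in the MDA231 table, against 1 of 5 mesenchymal (TGFB2), 1 of 4 neuronal (MAP2), 1 of 3 endothelial (PECAM1) and none of the astrocyte, microglia and oligodendrocyte markers. None of these was a member. The epithelial markers were picked with their presence in this table known, so their count carries no weight. The part of other cells in the listed genes was not tested.

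Members lay on 20 chromosomes, unevenly. Chromosome 11 held 16 of the 84 (19.0%), against 169 of the 2646 named genes (6.39%). Chromosome 19 followed with 8 members (9.52%), against 5.52% of all named genes, and chromosomes 14, 18 and 21 held none. In the other 14 terms with an adjusted p under 0.05, chromosome 11 held between 1.32% (cell cycle) and 11.9% (DNA replication) of the genes. Chromosome 11 was picked because it leads here, with 18.6% of the 86 genes of the term. Chromosome 1, with 10.9% of all named genes, led with 24.1% of 29 genes in type I interferon signaling and 18.2% of 22 in fatty acid beta-oxidation. In the remaining terms the leading chromosome held between 7.89% (cell cycle) and 11.9% (protein phosphorylation). The chromosome 11 members came from 6 classes, among them STX5, EHD1 and ARFIP2 of membrane traffic and CKAP5, CORO1B, EPS8L2 and SWAP70 of the cytoskeleton. STX5 (62806897 to 62832088, minus strand) and SLC3A2 (62856102 to 62888875, plus strand) lay 24.0 kb apart. No junction receptor or plaque member was on chromosome 11. This was noticed after the positions were seen and was not tested.

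**Figure D5:**
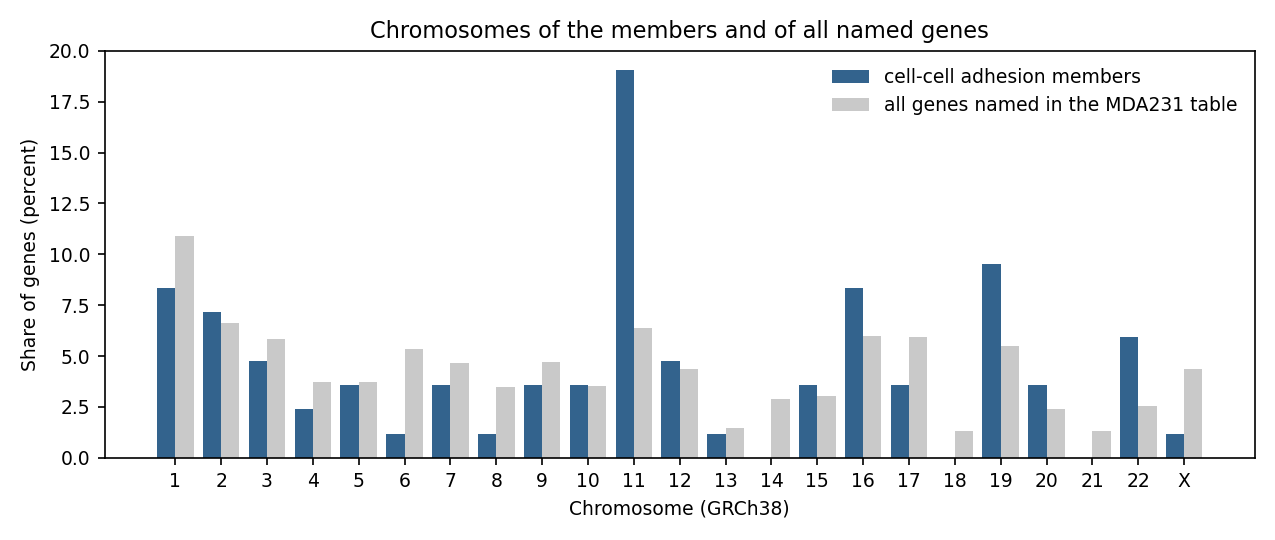
Percent of the 84 cell-cell adhesion members (blue, left bar) and of the 2646 genes named in the MDA231 table (grey, right bar) on each GRCh38 chromosome (x axis). Chromosome 11 holds 19.0% of the members and 6.39% of all named genes.

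Members were somewhat longer than named genes as a whole. The median gene spanned 53.8 kb for members and 35.7 kb for all named genes, and the median longest coding sequence was 1860 bases for members and 1482 bases for all named genes. Coding sequences of members ran between 285 bases (S100P) and 8013 bases (GCN1). Among the receptors, the coding sequence had 897 bases for F11R, 1578 for CEACAM1 and 1947 for FLRT3. Among the plaque proteins it had 5304 bases for TJP1, 5268 for PPL and 1728 for MPP7, which was shorter than FLRT3. These differences were not tested.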

How the data were processed

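The labels describe 16 libraries, 4 MDA231 IP, 4 MDA231 input, 4 HCC1954 IP and 4 HCC1954 input. Brain mRNA was captured on oligo(dT) beads and immunoprecipitated with an anti-BrdU antibody (2.5 µg for each brain), per the labels' protocols. STAR and HTSeq with the GRCh38 and GRCm38 builds are named per the submitters' processing notes, with versions not given in the sources used here. Per the file headers, each deposited row gives gene counts of a term, the list and the background, a percent of submitted genes, an enrichment p-value with Bonferroni and Benjamini forms, a false discovery rate in percent and a fold (a ratio of shares). Enrichment tool and gene selection: not given in the sources used here. Depth per library is unknown here.

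Identifiers were matched to symbols (2645 of 2646), to positions in GENCODE release 29 and to RefSeq promoter windows. Each member got 1 of 9 functional classes by hand. Members, classes and gene lists were chosen with earlier results of these data known; classes, motifs and positions were set after the names were seen. Genes named were the receptor and plaque members, the 12 members in most other terms and the leading 3 of each class, and others were added after their values were seen; some of these are not reported here. Overlaps were counted as distinct genes, and no test was run, because membership of a term chose the genes. Counting steps were tested on simulated term lists. The alternatives were term filters, collapse of overlapping terms, second classes and genes in at least 2 terms. Python 3.11.15, pandas 2.3.3, NumPy 2.4.6 and SciPy 1.17.1 were used.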

Additional observations from a re-analysis of the deposited data

How the results depend on the processing

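The fold of the adhesion term was 1.47 and became 1.45 without KRT18 and ENO1, and the number of identifiers equalled the deposited count. The 4 receptors became 8 with plaque and adaptor proteins counted in, and 5 where second roles were used. The 57 members in another term became 24 when the other terms were limited to those with an adjusted p under 0.05, 50 at an unadjusted p under 0.05, and stayed 57 for terms of at least 10 background genes. The median of 2 terms per member was the same with terms at an unadjusted p under 0.05 and with overlapping terms collapsed at a Jaccard index of 0.5. The 21 adhesion and junction genes named became 11 when 2 terms were asked for. With every listed start searched, a choice made after seeing the data, the share of members with CAGGTG was 44.3% in place of 32.9%. The moved counts follow from counting more classes or fewer terms. No paired analysis was possible because the tables hold no value per library, and for the same reason no replicate could be left out. Depth limits cannot be given, and the class of a protein with several roles is a judgement.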
